A study of Mus musculus with 4 samples.

Results

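The genes described here are 36 mouse genes of fatty acid metabolism, chosen by name out of 22096 gene symbols and sorted by the step they serve: de novo synthesis, elongation, desaturation, activation to acyl-CoA, assembly into storage glycerolipids, and mitochondrial oxidation. All 36 had a row in both tables used, and 34 reached a mean of 1 FPKM (fragments scaled to transcript length and to library depth) over the pair of libraries. Sciatic nerves of Zeb2 cKO mice, which carry a conditional knockout of the zinc finger transcription factor Zeb2, were compared with sciatic nerves of control mice. Both groups were taken at postnatal day 7 on a mixed strain background, and each RNA came from pooled nerves. The labels name neither the Cre driver nor the deleted exons, and they say no more of the control genotype. They describe 2 samples in each group but list the same table, with 1 column of FPKM, under both. Each table was therefore treated as 1 library, differences are given by size, and no test between the groups was possible.

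Schwann cells of the young nerve wrap axons in myelin, a membrane unusually rich in lipids with long saturated and monounsaturated acyl chains. Cytosolic acetyl-CoA is carboxylated to malonyl-CoA and built into palmitate by fatty acid synthase, after which membrane-bound elongases and desaturases lengthen the chain and introduce double bonds. Acyl-CoA synthetases activate free acids for use, glycerol acyltransferases bind them into glycerolipids, and carnitine palmitoyltransferases carry them into mitochondria for oxidation. Several of these steps are served by isoenzymes that differ between tissues: Cpt1b and Acacb are the forms typical of muscle, and Cpt1a and Acaca are those of most other tissues.

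The libraries held an estimated 20180394 reads (Zeb2 cKO) and 29616050 reads (control) on RefSeq transcripts. Zeb2 was at 19.5 FPKM in Zeb2 cKO nerves and 34.4 FPKM in control nerves, 0.568 of the control level (counting interval 0.548 to 0.588), over 1 row for the whole transcript, so a loss of single exons would not show. Schwann lineage transcripts were present in both, with Sox10 at 69.2 FPKM in Zeb2 cKO nerves and 139 FPKM in control nerves. Of 6 markers of myelinating Schwann cells, 5 were measured and all 5 were 2-fold or more lower, with summed levels of 999.6 FPKM in Zeb2 cKO nerves and 24430 FPKM in control nerves. All 18 skeletal muscle markers were 2-fold or more lower as well, with summed levels of 1136 FPKM (Zeb2 cKO) and 9201 FPKM (control). None of the 18 was at 0 in either library. Of the fibroblast markers 2 of 4 were 2-fold or more higher, and of the perineurial markers 2 of 3, while 0 of 4 endothelial and 0 of 4 macrophage markers were 2-fold apart. All 4 endothelial markers were higher by less than that, with summed levels of 125 FPKM (Zeb2 cKO) and 72.7 FPKM (control). Macrophage markers summed to 42.2 FPKM (Zeb2 cKO) and 43.2 FPKM (control). Of 2 hepatocyte markers 1 was measured, Alb, at 1.78 FPKM in Zeb2 cKO nerves and 0.780 FPKM in control nerves. The other, Apoa1, was at 1.13 FPKM in Zeb2 cKO nerves and 0.224 FPKM in control nerves, below a mean of 1 FPKM. In bulk nerve, fewer cells of a type and less RNA per cell cannot be told apart.

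Genes that make and lengthen saturated chains were lower in Zeb2 cKO nerves. A few genes were higher, among them Elovl5 and Elovl2, which are elongases of polyunsaturated chains. Genes of oxidation were within 2-fold apart from the muscle form Cpt1b, a share near that of all genes measured (10988 of 12903 within 2-fold). Of the 34 measured genes, 11 were 2-fold or more lower (32.4%), against 6.25% of all 12903 genes measured, and 4 were 2-fold or more higher (11.8%), against 8.59% of all genes. The other 19 lay within 2-fold. Here and below, 2-fold refers to log2((FPKM Zeb2 cKO + 1)/(FPKM control + 1)) of at least 1 or at most -1. On that scale the median was -0.44 for the 34 genes and 0.18 for all genes measured. With the Zeb2 cKO values rescaled to the median gene, 13 of the 34 were lower and 4 higher, while the split over all genes became 960 lower and 776 higher, compared with 806 lower and 1109 higher as deposited. The genes just past the 2-fold size were Acly at -1.02 and Scd2 at -1.11, and the one just short of it was Gpam at -0.90.

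**Figure D1:**
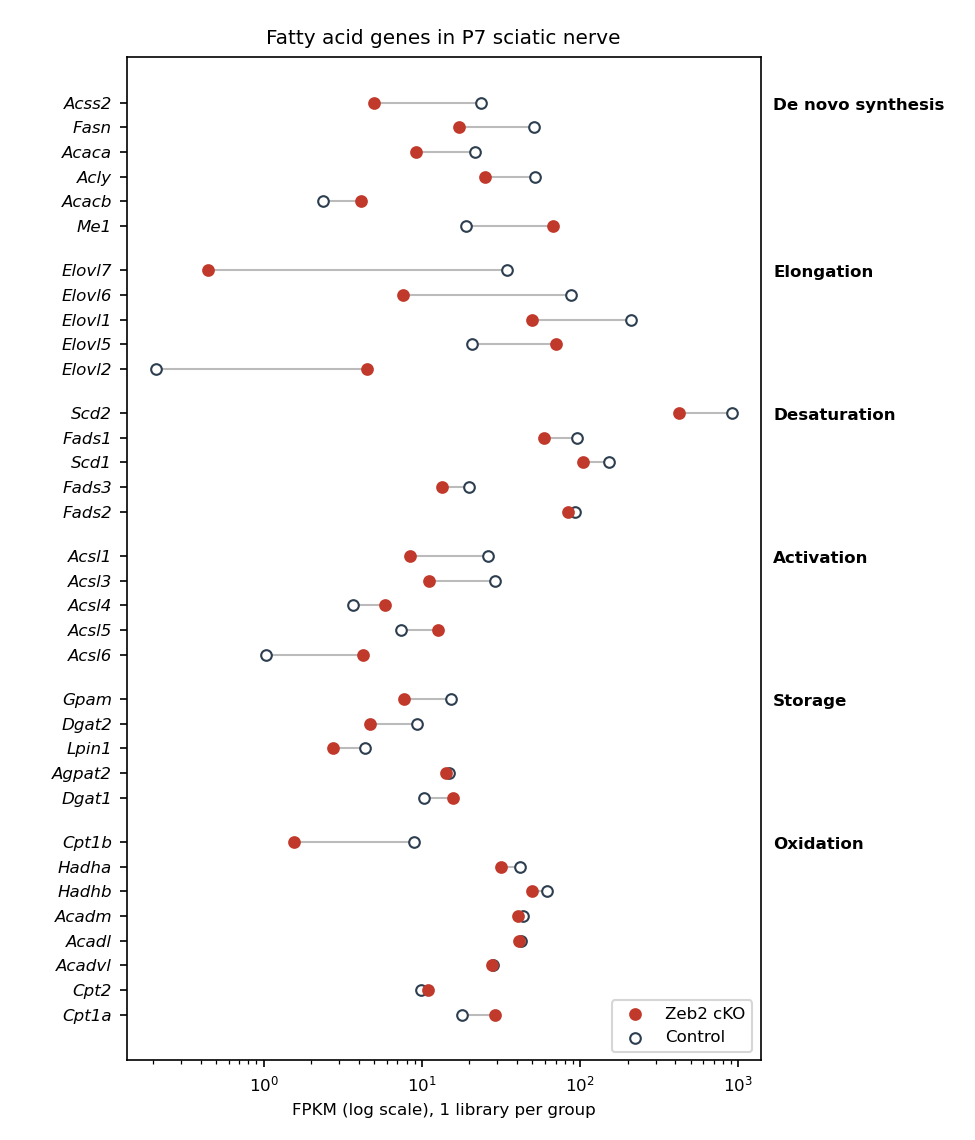
FPKM (log axis) of the 34 measured genes, grouped by step, in Zeb2 cKO nerves (filled) and control nerves (open). Elovl7, Elovl6 and Elovl1 lie far to the left in Zeb2 cKO nerves, Me1, Elovl5 and Elovl2 lie to the right, and most oxidation genes overlap.

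De novo synthesis was lower at 4 of its 6 genes and higher at 1, with a median log2 ratio of -1.09. Acss2, which makes cytosolic acetyl-CoA from acetate, was at 4.98 FPKM in Zeb2 cKO nerves and 23.7 FPKM in control nerves. That is 4.77-fold lower, with a counting interval of 4.25 to 5.35 (95%, from estimated reads, counting error only). Fasn, the fatty acid synthase that builds palmitate, was at 17.3 FPKM in Zeb2 cKO nerves and 51.2 FPKM in control nerves, 2.97-fold lower (2.87 to 3.07). Acaca, the acetyl-CoA carboxylase of lipogenic tissues, was at 9.20 FPKM in Zeb2 cKO nerves and 21.8 FPKM in control nerves, 2.36-fold lower (2.25 to 2.49). Acly, the citrate lyase that supplies acetyl-CoA, was at 25.1 FPKM in Zeb2 cKO nerves and 52.0 FPKM in control nerves, 2.07-fold lower (1.99 to 2.17). The enzymes that lead from acetate and citrate to palmitate were thus all past 2-fold. On mm9, Fasn lies at chr11:120667272-120685861 and Acss2 at chr2:155343779-155388479.

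Me1 and Acacb stood apart from these 4. Me1, the cytosolic malic enzyme that yields NADPH, was at 67.4 FPKM in Zeb2 cKO nerves and 19.1 FPKM in control nerves, 3.53-fold higher (3.36 to 3.71). It made up 52.6% of the summed FPKM of the step in Zeb2 cKO nerves and 11.2% in control nerves. Acacb, the mitochondria-associated carboxylase whose malonyl-CoA restrains carnitine palmitoyltransferase, was at 4.13 FPKM in Zeb2 cKO nerves and 2.37 FPKM in control nerves, a log2 ratio of 0.60. Beside the value of this muscle-type form, the ratios of the 18 skeletal muscle markers ranged from -3.44 to -1.90. Those of 6 measured white and general adipocyte markers ranged from 0.42 to 1.32. The part of either list in the Acacb value was not tested. The ratio of Acaca to Acacb, both in FPKM, was 2.23 in Zeb2 cKO nerves and 9.17 in control nerves.

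Elongation held both the lowest and the highest ratios of all 34 genes. The 7 ELOVL enzymes each catalyse the condensation step of chain lengthening and differ in the chains they accept. Elovl7, an elongase of saturated chains, was at 0.447 FPKM in Zeb2 cKO nerves and 34.5 FPKM in control nerves, 77.2-fold lower (59.7 to 102). The Zeb2 cKO value rests on an estimated 58.9 reads. Elovl6, which lengthens palmitate to stearate, was at 7.58 FPKM in Zeb2 cKO nerves and 87.1 FPKM in control nerves, 11.5-fold lower (10.8 to 12.2). Elovl1, which makes the very long saturated and monounsaturated chains of sphingolipids, was at 50.03 FPKM in Zeb2 cKO nerves and 211 FPKM in control nerves, 4.22-fold lower (4.03 to 4.42). Its locus overlaps Cdc20 in the tables. All 3 measured elongases of saturated and monounsaturated chains were thus lower. The 24.4-fold lower sum of the myelin markers stands beside these values, and its part in them was not tested. On mm9, Elovl7 lies at chr13:109004598-109077301, Elovl6 at chr3:129235304-129341411 and Elovl1 at chr4:118100698-118105521.

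The measured elongases of polyunsaturated chains, Elovl5 and Elovl2, were on the other side. Elovl5, which acts on polyunsaturated chains of intermediate length, was at 70.1 FPKM in Zeb2 cKO nerves and 20.8 FPKM in control nerves, 3.36-fold higher (3.19 to 3.54). Elovl2, which carries polyunsaturated chains on to greater length, was at 4.50 FPKM in Zeb2 cKO nerves and 0.207 FPKM in control nerves. This is 21.7-fold higher, and an estimated 28.3 control reads leave a counting interval as wide as 14.8 to 33.0. On mm9, Elovl5 lies at chr9:77765172-77832326 and Elovl2 at chr13:41277751-41315772. The order of the elongases therefore differed between the libraries. In Zeb2 cKO nerves Elovl5 came first (52.4% of the summed elongase FPKM), before Elovl1 (37.4%) and Elovl6 (5.66%). In control nerves Elovl1 came first (59.7%), before Elovl6 (24.6%), Elovl7 (9.74%) and Elovl5 (5.89%).

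The remaining elongases, Elovl3 and Elovl4, did not reach a mean of 1 FPKM. Elovl3, an elongase of skin and brown fat, was listed at 0 FPKM in Zeb2 cKO nerves and at 0.0788 FPKM in control nerves. Of Elovl4, which makes the longest chains of retina, skin and brain, 1 of 2 transcripts was marked as low in data in both libraries and left out. The transcript that was kept was at 1.22 FPKM in Zeb2 cKO nerves and 0.000418 FPKM in control nerves. With both transcripts it was at 1.40 FPKM in Zeb2 cKO nerves and 1.53 FPKM in control nerves, a log2 ratio of -0.08, so the kept transcript by itself says nothing of the gene.

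**Figure D2:**
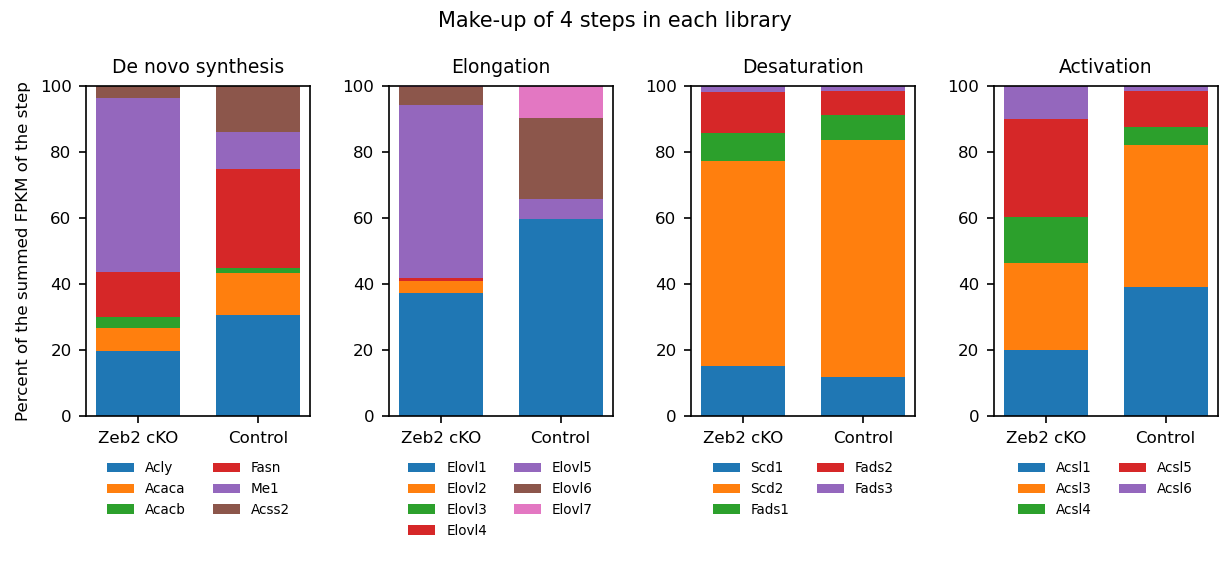
Percent of the summed FPKM of each step taken by each gene, Zeb2 cKO beside control, for de novo synthesis, elongation, desaturation and activation. Me1 takes 52.6% of de novo synthesis and Elovl5 52.4% of elongation in Zeb2 cKO nerves, compared with 11.2% and 5.89% in control nerves.

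The upstream sequences of the pair with the lowest ratios on the log2(FPKM + 1) scale, Elovl7 and Elovl6, and of the pair with the highest on that scale, Elovl2 and Me1, are shown so that genes at both ends of the range can be compared base by base. By plain FPKM ratio, Acsl6 would take the place of Me1. Each runs 5′ to 3′ over the 250 bases before the RefSeq start, in assembly GRCm38.p6, which is not the build of the tables. Capitals mark matches, on either strand, to 5 motifs: TCACNCCAC (sterol regulatory element), CACGTG (E-box), CCAAT (bound by the factor NF-Y), CACCTG (the E2 box that ZEB proteins bind) and GCGNGGGCG (EGR element). Elovl7 (chr13:108214154-108214403, plus strand), Elovl6 (chr3:129532136-129532385, plus strand), Elovl2 (chr13:41220404-41220653, minus strand) and Me1 (chr9:86695915-86696164, minus strand) read as follows.
Elovl7: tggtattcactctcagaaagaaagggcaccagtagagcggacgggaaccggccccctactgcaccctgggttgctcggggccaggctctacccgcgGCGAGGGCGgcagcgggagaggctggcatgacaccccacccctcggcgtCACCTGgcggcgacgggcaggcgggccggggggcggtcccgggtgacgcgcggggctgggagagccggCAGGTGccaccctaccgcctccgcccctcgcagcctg
Elovl6: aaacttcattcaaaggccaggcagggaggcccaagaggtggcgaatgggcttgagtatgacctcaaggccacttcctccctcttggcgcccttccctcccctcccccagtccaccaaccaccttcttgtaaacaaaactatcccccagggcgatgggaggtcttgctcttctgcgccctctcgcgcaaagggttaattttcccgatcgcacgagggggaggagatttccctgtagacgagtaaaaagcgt
Elovl2: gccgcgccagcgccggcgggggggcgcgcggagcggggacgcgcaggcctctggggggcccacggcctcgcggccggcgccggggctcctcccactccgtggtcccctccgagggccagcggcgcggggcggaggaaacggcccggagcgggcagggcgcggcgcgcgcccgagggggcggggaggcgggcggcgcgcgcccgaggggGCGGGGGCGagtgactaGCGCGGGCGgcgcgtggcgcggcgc
Me1: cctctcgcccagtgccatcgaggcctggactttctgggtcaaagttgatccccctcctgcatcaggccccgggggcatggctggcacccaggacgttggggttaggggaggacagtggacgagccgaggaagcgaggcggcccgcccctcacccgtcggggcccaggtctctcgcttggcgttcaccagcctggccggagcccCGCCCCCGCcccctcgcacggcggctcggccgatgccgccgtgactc

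The Elovl7 window held 2 CACCTG matches, beginning 105 and 37 bases before the start, and 1 GCGNGGGCG match at 154 bases before it. The Elovl6 window held none of the 5 motifs, and at 56.4% GC it was poorer in G and C than those of Me1 (72.0%), Elovl7 (73.6%) and Elovl2 (87.2%). Elovl2 held 2 GCGNGGGCG matches, and Me1 held 1. RefSeq promoter windows were found for 29 of the 36 genes. GCGNGGGCG was found in 3 of these 29 windows, which are those of Elovl7, Elovl2 and Me1, and in 4.70% of all 32851 windows. CACCTG was found in 3 of 29 (Elovl7, Elovl4 and Cpt2) and in 17.2% of all windows, CCAAT in 10 of 29 and in 33.9%, CACGTG in 1 of 29 (Elovl5) and in 6.02%, and TCACNCCAC in 0 of 29 and in 1.05%. A match describes letters only, and a window without one says nothing about binding elsewhere. The genes with a GCGNGGGCG match include 1 at the low end and 2 at the high end of the ratios.

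Desaturation was lower by smaller amounts, with a median log2 ratio of -0.54. Of its 5 genes 1 was 2-fold lower, where 6.25% of all genes measured were. Scd2, the stearoyl-CoA desaturase typical of neural tissue, was the highest of the 36 genes in both libraries. It was at 421 FPKM in Zeb2 cKO nerves and 909 FPKM in control nerves, 2.16-fold lower (2.14 to 2.18), and ranked 126 among all genes measured in Zeb2 cKO nerves and 43 in control nerves. Its locus overlaps Mir5114. Scd1, the isoenzyme prominent in liver and fat, was at 104 FPKM in Zeb2 cKO nerves and 151 FPKM in control nerves, a log2 ratio of -0.54. Scd2 remained the main desaturase, at 61.8% of the summed FPKM of the step in Zeb2 cKO nerves and 71.7% in control nerves.

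The 3 desaturases of the Fads family stayed within 2-fold, as did 10988 of all 12903 genes measured. Fads1, the delta-5 desaturase, was at 59.2 FPKM in Zeb2 cKO nerves and 95.7 FPKM in control nerves, a log2 ratio of -0.68. Fads2, the delta-6 desaturase that precedes Elovl5 in the pathway, was at 83.7 FPKM in Zeb2 cKO nerves and 92.7 FPKM in control nerves, a log2 ratio of -0.15. Fads3 was at 13.5 FPKM in Zeb2 cKO nerves and 19.9 FPKM in control nerves, a log2 ratio of -0.53. The 3 genes lie side by side on chromosome 19 and all had ratios below 0. Chromosome 19 carries 9 of the 36 genes, of which 8 were measured, and Scd2 was the only one of these that was 2-fold apart. This count, too, is near that of genes at large.

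Activation was divided, with 2 of 5 acyl-CoA synthetases lower and 1 higher. Acsl1, the main form of muscle, heart and fat, was at 8.43 FPKM in Zeb2 cKO nerves and 26.4 FPKM in control nerves, 3.13-fold lower (2.89 to 3.38). The part of the muscle and adipocyte markers in this value was not tested. Acsl3, found on the endoplasmic reticulum and lipid droplets, was at 11.1 FPKM in Zeb2 cKO nerves and 28.9 FPKM in control nerves, 2.61-fold lower (2.44 to 2.81), and its locus overlaps Utp14b. Acsl6, the form of brain, was at 4.22 FPKM in Zeb2 cKO nerves and 1.03 FPKM in control nerves, 4.08-fold higher (3.29 to 5.32). Acsl4, which prefers arachidonate, was at 5.87 FPKM in Zeb2 cKO nerves and 3.69 FPKM in control nerves, a log2 ratio of 0.55. Acsl5 was at 12.6 FPKM in Zeb2 cKO nerves and 7.38 FPKM in control nerves, a log2 ratio of 0.70. The forms highest in control nerves were thus the ones that were lower: Acsl3 (42.9%) and Acsl1 (39.1%) led the summed FPKM there, and Acsl5 (29.8%) led in Zeb2 cKO nerves. The median log2 ratio of 0.55 and the summed FPKM, 42.1 in Zeb2 cKO nerves and 67.3 in control nerves, point in opposite directions. The median was -1.31 where a mean of at least 5 FPKM was required, and -0.11 with the top transcript of each gene.

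Transcripts of one gene differed in their ratios. Acly has a transcript NM_134037 at 15.5 FPKM in Zeb2 cKO nerves and 20.5 FPKM in control nerves, and a slightly longer one (4427 against 4397 bases), NM_001199296, at 9.63 FPKM in Zeb2 cKO nerves and 31.5 FPKM in control nerves. The first was 61.6% of Acly in Zeb2 cKO nerves and 39.4% in control nerves. For Elovl1, NM_019422 was at 47.5 FPKM in Zeb2 cKO nerves and 173 FPKM in control nerves, and NM_001039176 was at 2.52 FPKM in Zeb2 cKO nerves and 37.8 FPKM in control nerves, 15.0-fold lower. All 3 transcripts of Acsl3 were lower, with log2 ratios of -0.92 (NM_001033606), -1.21 (NM_001136222) and -1.94 (NM_028817). Those of Acsl4 went in opposite directions, with NM_019477 at 4.22 FPKM in Zeb2 cKO nerves and 0.0744 FPKM in control nerves and NM_001033600 at 0.0786 FPKM in Zeb2 cKO nerves and 2.40 FPKM in control nerves. The third Acsl4 transcript, NM_207625, was at 1.57 FPKM in Zeb2 cKO nerves and 1.21 FPKM in control nerves. Acsl6, also picked after its values were seen, was made up of different transcripts in each library: NM_144823 was at 6.4e-05 FPKM in Zeb2 cKO nerves and 1.00 FPKM in control nerves (96.7% of the gene there), and the other 3 were at 1.23 to 1.54 FPKM in Zeb2 cKO nerves and at most 0.0340 FPKM in control nerves. The higher level of Acsl6 therefore rests on the sum over its transcripts. Cufflinks divides shared reads among such transcripts by a model, and the tables' columns hold no error of that division.

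**Figure D3:**
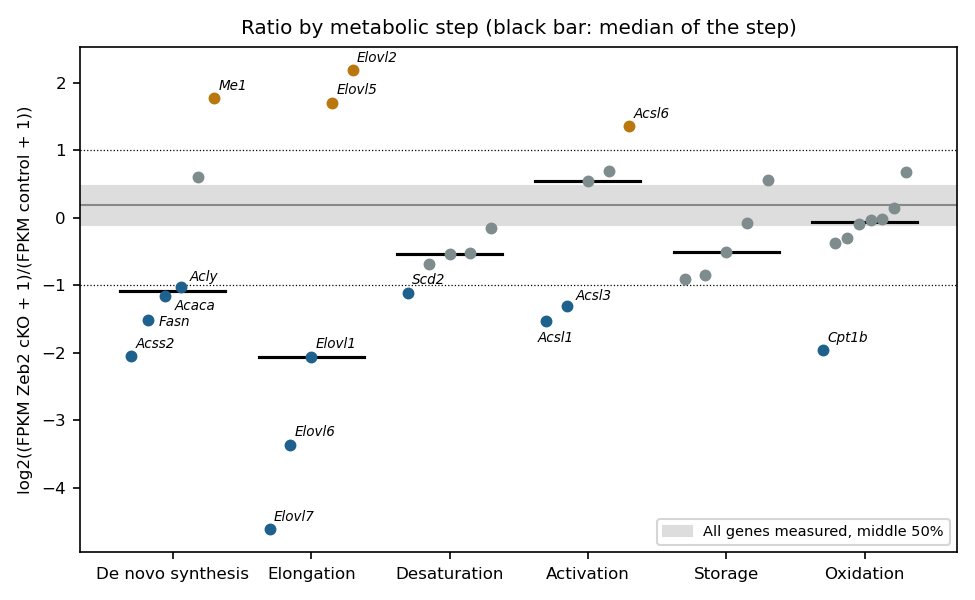
Log2((FPKM Zeb2 cKO + 1)/(FPKM control + 1)) of each measured gene by step. Dotted lines mark 2-fold, the grey band the interquartile range of all genes measured around their median of 0.18, and black bars the median of each step, from -2.06 (elongation) to 0.55 (activation).

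No gene of glycerolipid assembly was 2-fold apart, a count near that of genes at large (10988 of 12903 within 2-fold). The median log2 ratio of these 5 was -0.51. Gpam, the mitochondrial enzyme that starts glycerolipid synthesis, was at 7.69 FPKM in Zeb2 cKO nerves and 15.3 FPKM in control nerves, a log2 ratio of -0.90. Dgat2, a triglyceride-forming acyltransferase, was at 4.70 FPKM in Zeb2 cKO nerves and 9.30 FPKM in control nerves, a log2 ratio of -0.85. Rescaled to the median gene, these values became -1.09 for Gpam and -1.03 for Dgat2, past 2-fold. Dgat1, the other triglyceride-forming enzyme, was at 15.8 FPKM in Zeb2 cKO nerves and 10.4 FPKM in control nerves, a log2 ratio of 0.56. Agpat2, a lysophosphatidic acid acyltransferase, was at 14.1 FPKM in Zeb2 cKO nerves and 14.9 FPKM in control nerves. Lpin1, the phosphatidate phosphatase that makes diacylglycerol, was at 2.76 FPKM in Zeb2 cKO nerves and 4.36 FPKM in control nerves, a log2 ratio of -0.51. White and general adipocyte markers differed in the other direction from the median of this step: 4 of 6 measured were 2-fold or more higher, and Retn and Cidec were within 2-fold. Summed levels over 7 markers were 529 FPKM (Zeb2 cKO) and 218 FPKM (control), and none was at 0. Most of each sum was Fabp4 alone, at 468 FPKM in Zeb2 cKO nerves and 194 FPKM in control nerves. Of 4 brown adipocyte markers 3 were measured. Cox8b, which muscle also expresses, was at 10.5 FPKM in Zeb2 cKO nerves and 96.4 FPKM in control nerves, Dio2 was at 2.29 FPKM in Zeb2 cKO nerves and 0.207 FPKM in control nerves, and Ucp1 was within 2-fold. The part of either list in the storage values was not tested.

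Oxidation had the median closest to 0 of the 6 steps, at -0.06, where that of all genes measured was 0.18. The acyl-CoA dehydrogenases Acadl, Acadm and Acadvl, which open each round of chain shortening, were at 41.3, 40.5 and 27.7 FPKM in Zeb2 cKO nerves. In control nerves they were at 42.3, 43.3 and 28.1 FPKM, and the log2 ratios were -0.03, -0.10 and -0.02. Hadha and Hadhb, the subunits of the mitochondrial trifunctional protein, were at 31.7 and 50.01 FPKM in Zeb2 cKO nerves and 41.5 and 61.8 FPKM in control nerves, with log2 ratios of -0.37 and -0.30. Their loci lie 341 bases apart on chromosome 5. Cpt2, the inner membrane transferase, was at 11.0 FPKM in Zeb2 cKO nerves and 9.90 FPKM in control nerves, a log2 ratio of 0.14 that became -0.05 when rescaled to the median gene.

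The carnitine palmitoyltransferase 1 isoenzymes, which set entry into mitochondria, differed from each other. Cpt1a was at 29.2 FPKM in Zeb2 cKO nerves and 17.9 FPKM in control nerves, a log2 ratio of 0.67. Cpt1b, the muscle form, was at 1.55 FPKM in Zeb2 cKO nerves and 8.92 FPKM in control nerves, 5.76-fold lower (4.71 to 7.09). Cpt1b was thus the only one of 8 oxidation genes that was 2-fold apart, and its locus overlaps BC090627. Among all 12903 genes measured, 10988 were within 2-fold, so this count is near that of genes at large. The ratio of Cpt1a to Cpt1b in FPKM was 18.8 in Zeb2 cKO nerves and 2.01 in control nerves. Beside it stands the 8.10-fold lower sum of the skeletal muscle markers, whose part in the Cpt1b value was not tested. Without Cpt1b the median of the step was -0.03, compared with -0.06 with it, and 0 of 7 genes were 2-fold apart.

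Of 6 genes of the remaining reactions of the elongation cycle, 1 was lower, 1 higher and 4 within 2-fold, where 10988 of all 12903 genes were within 2-fold. Hsd17b12, the ketoacyl-CoA reductase of the cycle, was at 37.9 FPKM in Zeb2 cKO nerves and 112 FPKM in control nerves, 2.95-fold lower. Ptplad2, also called Hacd4 and of the dehydratase family of the cycle, was at 5.73 FPKM in Zeb2 cKO nerves and 1.90 FPKM in control nerves, 3.02-fold higher. Of 6 genes of citrate and NADPH supply, 1 was lower, the mitochondrial citrate carrier Slc25a1, at 28.0 FPKM in Zeb2 cKO nerves and 89.9 FPKM in control nerves. The second largest ratio there was that of Me3, another malic enzyme, at 0.51.

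Uptake and binding proteins had 3 of 11 measured genes lower and 1 higher, with a median of 0.50. Beside this list and the others of this paragraph, 6.25% of all genes measured were lower and 8.59% higher. Pmp2, the fatty acid-binding protein of myelin, was at 9.63 FPKM in Zeb2 cKO nerves and 1145 FPKM in control nerves. Fabp3, the form of heart and muscle, was at 5.77 FPKM in Zeb2 cKO nerves and 68.4 FPKM in control nerves, 11.9-fold lower. Of 3 measured genes of further acyl-CoA synthetases, Acsbg1, a form of brain, was 3.38-fold higher (13.99 FPKM in Zeb2 cKO nerves and 4.14 FPKM in control nerves), and the mitochondrial acetate-activating enzyme Acss1 was 2.23-fold lower (4.67 FPKM in Zeb2 cKO nerves and 10.4 FPKM in control nerves). Of 7 further genes of glycerolipid assembly, 1, the phosphatidate phosphatase Lpin2, was 2.81-fold higher, and Agpat3 had a log2 ratio of -0.80. Of 11 genes of droplet coat and lipolysis, 2 were higher and 1 lower. The lower one was the monoglyceride lipase Mgll, at 29.0 FPKM in Zeb2 cKO nerves and 140.2 FPKM in control nerves. One of the higher ones was the hormone-sensitive lipase Lipe, at 11.1 FPKM in Zeb2 cKO nerves and 4.48 FPKM in control nerves, whose locus overlaps 4732471J01Rik. The other was the droplet coat protein Plin1, at 5.91 FPKM in Zeb2 cKO nerves and 2.24 FPKM in control nerves, which is also among the adipocyte markers.

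Further measured genes of oxidation stayed within 2-fold, as did 10988 of all 12903 genes measured. Of 15 further mitochondrial genes measured 0 were 2-fold apart, with a median of -0.14. Of 8 peroxisomal genes measured 0 were, with a median of 0.15. The peroxisomal Acox2 did not pass the filter, at 0.771 FPKM in Zeb2 cKO nerves and 0 FPKM in control nerves. The largest ratios in the mitochondrial list were 0.85 for the brain isoenzyme Cpt1c and -0.75 for the carnitine acetyltransferase Crat.

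**Figure D4:**
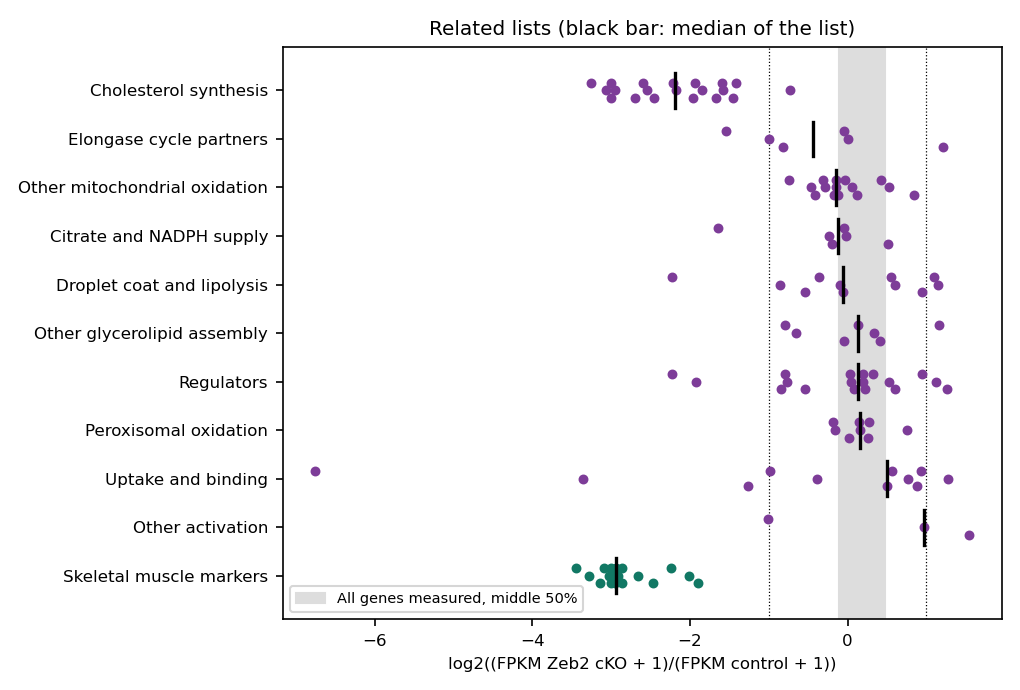
Log2((FPKM Zeb2 cKO + 1)/(FPKM control + 1)) of measured genes in related lists (purple) and in the skeletal muscle markers (green), with the median of each list as a black bar, 2-fold as dotted lines and the interquartile range of all genes as a grey band. Cholesterol synthesis and the muscle markers lie to the left of the 2-fold line almost throughout, and both oxidation lists lie within 2-fold.

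Of 18 measured regulators of fatty acid metabolism, 2 were lower and 2 higher, where 6.25% of all genes were lower and 8.59% higher. The median of the list was 0.14, near the 0.18 of all genes measured. Rxrg, a retinoid X receptor, was at 1.31 FPKM in Zeb2 cKO nerves and 9.81 FPKM in control nerves, 7.48-fold lower. Insig1, which retains SREBP precursors in the endoplasmic reticulum and is itself an SREBP target, was at 34.4 FPKM in Zeb2 cKO nerves and 133.9 FPKM in control nerves, 3.89-fold lower. Srebf1, which encodes the SREBP that drives fatty acid synthesis, was at 43.6 FPKM in Zeb2 cKO nerves and 22.1 FPKM in control nerves, a log2 ratio of 0.95, and its locus overlaps Rai1. Srebf2, of the same family, was at 31.3 FPKM in Zeb2 cKO nerves and 54.1 FPKM in control nerves, a log2 ratio of -0.77. The part of either gene in the values of Acly, Acaca and Fasn was not tested. The 2 higher genes, named after their values were seen, were Ppargc1a, a coactivator of mitochondrial genes, at 5.46 FPKM in Zeb2 cKO nerves and 1.69 FPKM in control nerves (3.24-fold higher), and Nr1h3, the liver X receptor alpha, at 4.49 FPKM in Zeb2 cKO nerves and 1.52 FPKM in control nerves (2.96-fold higher). Pparg was at 2.76 FPKM in Zeb2 cKO nerves and 1.49 FPKM in control nerves, and Mlxipl, which encodes the carbohydrate-responsive factor ChREBP, did not pass the filter, at 0.618 FPKM in Zeb2 cKO nerves and 1.12 FPKM in control nerves.

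Cholesterol synthesis, the group most like this one, was lower more evenly. At least 2-fold lower levels were seen for 19 of 20 measured genes and higher ones for 0, and their median was -2.19, compared with 11 of 34 lower, 4 higher and a median of -0.44 for the fatty acid genes. Idi1, the isopentenyl diphosphate isomerase, had the lowest ratio there, at -3.25. Hmgcs1 was listed at 0 in both libraries and could not be measured. With 1 library in each group, the difference between the 2 sets of genes could not be tested.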

How the data were processed

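Sciatic nerve RNA of Zeb2 cKO and control mice was sequenced from TruSeq libraries, per the labels' protocols. The submitters' processing notes name build mm9 and the tools CASAVA, TopHat, Cufflinks and Cuffdiff. Their versions are not given in the sources used here. The deposited tables give, per the file headers, FPKM and read coverage for each of 28107 RefSeq transcripts. FPKM values were made by the authors with Cufflinks. The deposited coverage signal is mean depth per base, not scaled to library size. Both samples of a group list the same table, and whether it holds 1 of them or both is not stated, so it was treated as 1 library of its group.

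Rows not marked OK in both tables (295) were left out and FPKM was summed by symbol. Genes at a mean of at least 1 FPKM were compared on log2(FPKM + 1), which understates the change of low genes, and folds are plain FPKM ratios. Coverage times length, divided by the 52.6 bases that 1 read contributes, gave estimated reads and 95% Clopper-Pearson intervals, which cover counting error only. These are approximate. Levels between genes are compared per length, as FPKM. Positions count from 1 on mm9 for genes. Promoter sequences are from RefSeq (GRCm38.p6), taken from the entry nearest to the GENCODE M21 start of the transcript with most FPKM. For Lpin1 the only entry lay 21196 bases away, and no start was matched for Elovl4.

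All 36 genes are accounted for. Genes 2-fold apart get intervals, and of each wider list the pair with the largest ratios is named, plus Srebf1, Mlxipl and Pparg. Some genes that this rule names are not reported here. Of 121 wider entries all matched, 7 through a RefSeq accession. Genes, lists and rules were chosen with earlier results of these data known. Hmgcs1, Sox10, Plin1, Srebf2, Fabp4, Alb, Apoa1, Acox2 and the promoter motifs were picked after values were seen. Reads carry no stated strand, so overlapping genes cannot be told apart. Proteins were planned for the elongases and are not used here. Alternatives were other pseudocounts, filters, scalings, statuses, transcript choices and fold sizes. Code was tested on simulated data. Python 3.11.15, pandas 2.3.3, NumPy 2.4.6, SciPy 1.17.1 and Matplotlib 3.10.9 were used.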

Additional observations from a re-analysis of the deposited data

How the results depend on the processing

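No paired analysis was possible because each group has 1 table, and no library could be left out for the same reason. All 15 genes 2-fold apart stayed so with a pseudocount of 0.1, no filter, every status and upper-quartile scaling. Having no filter also added Elovl4, on its kept transcript alone, for 5 higher. None of the 15 reversed under any of the 8 settings in which it had a value. At a mean of at least 5 FPKM Elovl2 and Acsl6 had no value, and with the top transcript Acsl6 had none. A pseudocount of 5 lost Acaca, Acly, Acsl6 and Elovl2, the top transcript lost Acsl3 and Acsl6 and added Acsl4, and median-gene scaling added Gpam and Dgat2. The counts of 11 lower and 4 higher became 5 lower at 3-fold and 7 higher at 1.5-fold, and 2 higher with a pseudocount of 5 or a mean of at least 5 FPKM. Over all genes, 529 were lower and 477 higher with a pseudocount of 5, 739 higher at a mean of at least 5 FPKM, 1266 lower and 2537 higher at 1.5-fold, and 457 lower and 401 higher at 3-fold. The median of the fatty acid genes was -0.31 with a pseudocount of 5, -0.34 with no filter and -0.62 with median-gene scaling. Step medians with a pseudocount of 5 were -0.92 for de novo synthesis, 0.32 for activation and -0.27 for storage. With median-gene scaling they were -1.29 for de novo synthesis, -2.26 for elongation, -0.75 for desaturation, 0.37 for activation and -0.27 for oxidation, and with upper-quartile scaling -1.18 for de novo synthesis, -2.15 for elongation, -0.63 for desaturation and -0.16 for oxidation. With the top transcript they were -1.34 for de novo synthesis, -1.85 for elongation, -0.11 for activation and -0.82 for storage. The elongation median rested on few genes and was -0.11 with no filter and -1.07 with every status, both of which add low genes, and -2.71 at a mean of at least 5 FPKM. That filter turned the activation median to -1.31, since Acsl4 and Acsl6 drop out. Other causes were not tested. Depth limits Elovl2, Elovl7 and Acsl6, which had under 100 estimated reads in a library.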
